A study of Mus musculus with 6 samples.

Results

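Nucleic acid sensors are the proteins with which a cell notices foreign or misplaced DNA and RNA, and 10 of their genes were described here in regenerating mouse muscle into which plasmid DNA had been injected. The genes were chosen by name, with earlier results of these data known. Counts among them, set beside the share of all genes, are therefore descriptive and no test of the set. Ddx58, Ifih1 and Dhx58 encode RNA sensors, Zbp1, Aim2, Ifi204, Mndal and Tlr9 were taken as the DNA sensors, Tmem173 encodes an adaptor of DNA sensing and Trex1 a DNA-degrading enzyme. All 10 were found among the 52369 genes of the deposited expression table. Of these, 9 were measured in every library and Trex1 was listed at 0 throughout.

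The 6 RNA sequencing libraries came from tibialis anterior, a muscle of the lower leg, of C57BL/6 mice. The L7 group (3 libraries) is labelled as overexpressing Linc-smad7, a long non-coding RNA, and the Control group (3 libraries) is labelled control. Both groups had received cardiotoxin (CTX), a snake venom toxin that kills muscle fibres and starts regeneration, as 50 µl of a 10 µM solution at 5 weeks of age. Both had also received 6.25 µg of pcDNA3.1, a mammalian expression plasmid, mixed with the transfection reagent EntransterTM-in vivo in 50 µl of 10% glucose and injected 3 times, the last on day 4. Muscles were taken on day 7, at 6 weeks of age. Injury, plasmid DNA and transfection reagent were therefore common to L7 and Control muscles, and no muscle without plasmid or without injury was analysed here. The comparison shows how the sensor genes differed between 2 plasmid-treated groups and not how they respond to a plasmid. The sources used here do not say what the Control plasmid carried, which cells took up DNA or whether each library came from a separate animal. The p-values therefore measure the spread between these libraries. Each group held libraries of both sexes, as judged below from Y-linked genes, so this spread is not only technical. Libraries of the same sex in a group may still share an animal. Linc-smad7 is matched to no gene by name in the files, and its level is not given here.

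Sensors fall into routes that meet at a shared output. The cytosolic helicases RIG-I (the product of Ddx58) and MDA5 (the product of Ifih1) bind double-stranded RNA and signal through MAVS. The enzyme cGAS binds cytosolic DNA and makes a messenger that activates STING, the product of Tmem173. AIM2 instead builds an inflammasome, and TLR9 reads unmethylated CpG DNA, which bacterially grown plasmids carry, in endosomes. MAVS, STING and TLR9 all lead to type I interferon, and many sensor genes are themselves switched on by interferon. In injured muscle, infiltrating macrophages and other leukocytes are rich in sensors, and a whole-muscle library mixes them with fibres, fibroblasts and vessels.

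Depth was similar across libraries, with 19420012 to 24663153 reads in genes. L7 replicate 3 stood apart, with correlations over genes of 0.920 to 0.951 with the others, against 0.979 to 0.989 among the other 5. In L7 replicate 3 the 10 genes with most reads took 14.1% of all reads, against 6.57% to 8.40% elsewhere. Reads of Y-linked genes marked L7 replicate 1 and Control replicates 1 and 3 as male and the other 3 libraries as female. All 10 markers of muscle fibres, the labelled tissue, were measured, and their summed level was 32929 to 98081 FPKM in L7 and 21826 to 30639 FPKM in Control muscles. FPKM are fragments per kilobase of gene, corrected for sequencing depth, so they can be compared between genes. Between libraries they are not corrected where a few genes take many of the reads, as in L7 replicate 3. Scaling by medians of ratios, used below, gave L7 replicate 3 a factor of 0.776, against 1.03 to 1.10 for the other libraries.

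All 9 measured sensor genes had a lower mean in L7 than in Control muscles, at 0.581 to 0.743 times the Control level. The median log2 difference (L7 minus Control, on log2(FPKM + 1)) was -0.59 for the sensors, against -0.15 for all 14788 genes tested, of which 70.8% had a negative difference. In 6 of the 9 genes each L7 value lay below each Control value, which held for 13.7% of all genes, and in 3 genes (Aim2, Tlr9 and Tmem173) the groups overlapped. None of the 9 passed limma, a linear model fitted across all genes, at a Benjamini-Hochberg adjusted p of 0.05. The share of all genes that passed was 0.0%, so no gene was called in either direction. An unadjusted limma p under 0.05 with a lower L7 level was found for 7 of the 9 sensors and for 4.25% of all genes. With a higher L7 level it was found for 0 of the 9 and for 1.65% of all genes, and each L7 value lay above each Control value for 0 of the 9 and for 5.49% of all genes. With limma voom on reads recovered from the table, 0 sensors were called as well. Because whole muscle was sequenced, fewer cells of a sensor-rich type and less sensor RNA per cell cannot be told apart.

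**Figure D1:**
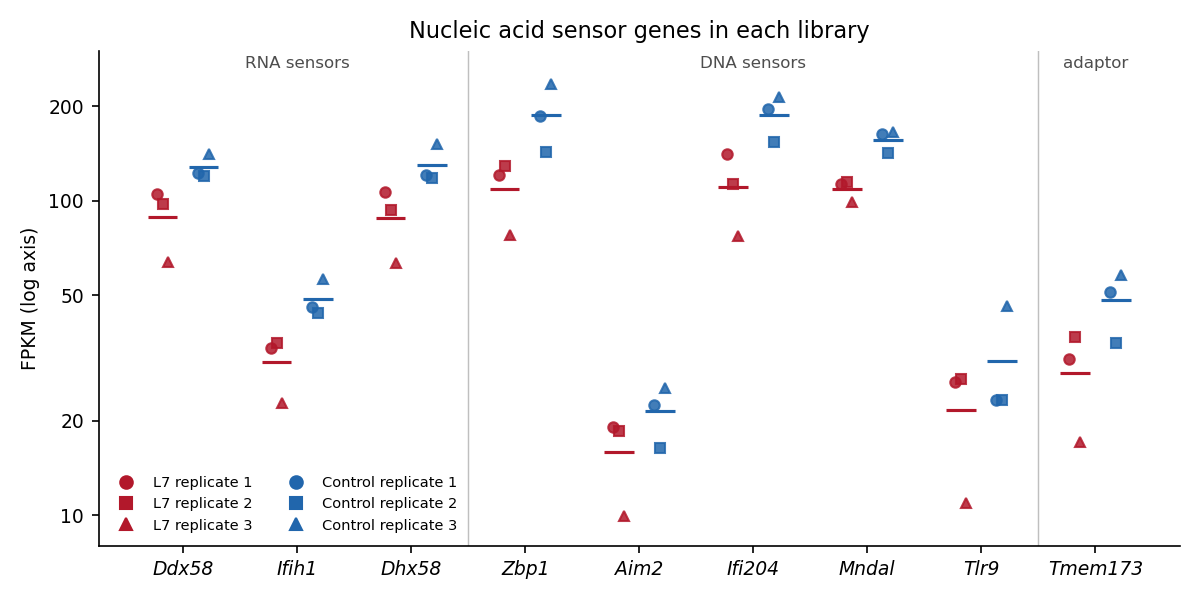
FPKM (log axis) of the 9 measured sensor genes in each library, L7 in red to the left of Control in blue, with symbols for replicates and a line at each group mean. On this FPKM scale Control replicate 3 is the highest and L7 replicate 3 the lowest library for all 9 genes, and the groups overlap for Aim2, Tlr9 and Tmem173.

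In FPKM, the same pair of libraries marked the ends of the range for every measured sensor. Control replicate 3 was the highest and L7 replicate 3 the lowest of the 6 libraries for all 9 genes. The share of all genes with these libraries at the ends is not given here. After median of ratios scaling L7 replicate 3 was not the lowest for Mndal, at 128.1 against 108.8 and 111.6 in L7 replicates 1 and 2. Leaving out L7 replicate 3 left 6 of 9 genes with the L7 libraries all below the Control libraries (15.0% of all genes). With the remaining libraries divided by their median of ratios factors, estimated on all 6 libraries, the number was again 6 (11.9% of all genes). Median of ratios scaling of all 6 libraries moved the median of all genes by more than 0.1, to 0.00 against -0.15, and gave a sensor median of -0.41, again with 6 of 9 genes not overlapping (8.9% of all genes). Relative to all genes, the sensor median was therefore -0.41 after this scaling, against -0.43 in FPKM. Without Control replicate 3 it was -0.31 relative to all genes, from -0.48 for the sensors and -0.17 for all genes. Mndal then kept an unadjusted limma p under 0.05 (0.0352), and no other sensor did (the next was Ifih1, 0.0522). With sex as a covariate in limma, the unadjusted p was under 0.05 for Ifih1, Zbp1, Ifi204 and Mndal alone.

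**Figure D2:**
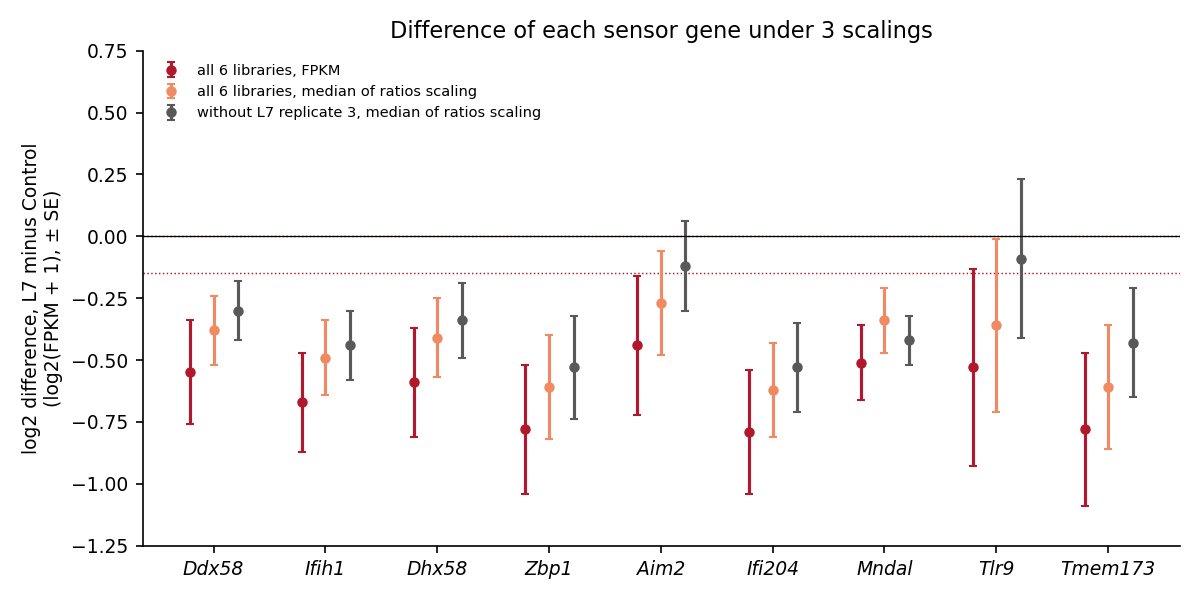
Log2 difference (L7 minus Control, log2(FPKM + 1), with standard error) of each measured sensor under 3 scalings: FPKM of all 6 libraries, FPKM of all 6 libraries after median of ratios scaling, and median of ratios scaling without L7 replicate 3. The horizontal dotted lines mark the medians of all genes, -0.15 in FPKM and 0.00 after scaling, and every point is negative, with Aim2 and Tlr9 closest to 0 in the last setting (-0.12 and -0.09).

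Among the RNA sensors, the groups were apart for all 3 genes, with L7 below Control. Ddx58 encodes RIG-I, which recognises short double-stranded RNA with a triphosphate end. Ddx58 (ENSMUSG00000040296, chromosome 4, 40203773 to 40239828, minus strand, mm10) was at 105.1, 97.5 and 63.7 FPKM in L7 replicates 1 to 3, against 122.8, 119.8 and 141.3 FPKM in Control replicates 1 to 3. L7 replicates 1 and 2 lay close below the Control libraries and L7 replicate 3 well below them. Its mean was 88.76 ± 22.03 FPKM in L7 and 127.9 ± 11.6 FPKM in Control muscles (SD, n = 3 each). The log2 difference of Ddx58 was -0.55 ± 0.21 (SE), with limma p-values of 0.0345 before and 0.580. after adjustment

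Ifih1 encodes MDA5, which binds long double-stranded RNA. Ifih1 (ENSMUSG00000026896, chromosome 2, 62595798 to 62646255, minus strand) was at 34.1, 35.3 and 22.8 FPKM in L7 muscles, against 45.9, 44.0 and 56.4 FPKM in Control muscles. The groups were apart, with the highest L7 library below the lowest Control library. On the log2 scale Ifih1 differed by -0.67 ± 0.20 (SE), with limma p-values of 0.0131 before and 0.580. after adjustment

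Dhx58 encodes LGP2, a helicase without the signalling domains of the other two that modulates them. Dhx58 (ENSMUSG00000017830, chromosome 11, 100694884 to 100704271, minus strand) was at 106.7, 93.7 and 63.3 FPKM in L7 muscles, against 120.9, 117.9 and 151.7 FPKM in Control muscles. Again no L7 library reached the lowest Control library. For Dhx58 the log2 difference was -0.59 ± 0.22 (SE), with limma p-values of 0.0331 before and 0.580. after adjustment The antisense gene Dhx58os covers 4.3% of the exon bases of Dhx58, and the sources used here do not give a strand setting for the counting, so reads of this stretch cannot be told apart. For each RNA sensor the exact two-sided permutation p over the 6 libraries was 0.1, the smallest that 3 libraries against 3 can give.

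Among the DNA sensors, the groups were apart for 3 of 5, with L7 below Control. Zbp1 encodes a sensor of Z-form DNA and RNA that can start cell death through RIPK3, and it had the highest mean of the measured sensors in Control muscles. Zbp1 (ENSMUSG00000027514, chromosome 2, 173206612 to 173218923, minus strand) was at 120.6, 129.0 and 78.1 FPKM in L7 muscles, against 186.7, 143.0 and 234.6 FPKM in Control muscles. The Control libraries were spread over a wide range, and the lowest of them was still above the highest L7 library. The means were 109.2 ± 27.3 FPKM in L7 and 188.1 ± 45.8 FPKM in Control muscles (SD, n = 3 each). For Zbp1 the log2 difference was -0.78 ± 0.26 (SE), with limma p-values of 0.0180 before and 0.580. after adjustment

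Ifi204 and Mndal belong to the PYHIN family, whose genes lie in 1 cluster on chromosome 1 and encode proteins with a DNA-binding HIN domain or a pyrin domain. The product of Ifi204, p204, is a mouse DNA sensor that works with STING. Ifi204 (ENSMUSG00000073489, 173747293 to 173766943, minus strand) was at 141.1, 112.7 and 77.1 FPKM in L7 muscles, against 196.3, 153.3 and 214.3 FPKM in Control muscles. The L7 libraries differed from each other by almost as much as the groups did, without reaching the Control range. Its log2 difference of -0.79 ± 0.25 (SE) was the most negative of the 9, with limma p-values of 0.0146 before and 0.580. after adjustment

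In FPKM, Mndal was the least variable of the measured sensors within each group. Mndal (ENSMUSG00000090272, chromosome 1, 173849126 to 173942491, minus strand) was at 113.3, 115.1 and 99.4 FPKM in L7 muscles, against 162.7, 141.7 and 164.9 FPKM in Control muscles. In FPKM, L7 replicate 3 was closer in proportion to the other L7 libraries here than for any other measured sensor. After median of ratios scaling it was the highest of the L7 libraries for Mndal, at 128.1 against 108.8 and 111.6. Ifih1 was then at 32.8, 34.2 and 29.4 in L7 replicates 1 to 3, a spread no wider in proportion than that of Mndal. The coefficient of variation of its FPKM was 7.85% in L7 and 8.17% in Control muscles. For the other 8 genes it was 22.5% to 42.6% in L7 and 9.10% to 42.8% in Control muscles. The log2 difference of Mndal was -0.51 ± 0.15 (SE), with limma p-values of 0.00884 before adjustment, the smallest of the 9, and 0.580 after it. The PYHIN genes are similar in sequence: of all stretches of 50 bases in the transcripts of Ifi204 and Mndal, 20.0% and 19.6% occur also in other genes (14.8% and 8.0% in Ifi211), so how reads were divided among them is uncertain.

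A motif recurs before the starts of several genes of the PYHIN cluster, Mndal among them, and its sequences are shown for that reason. Searched on both strands in the 250 bases before each RefSeq start (GRCm38.p6), the interferon-stimulated response element, taken as GAAA, any 2 bases and GAAA again, was found in 978 of 32851 windows (2.98%). Counted by gene, 936 of 27025 genes with a window (3.46%) held it. A window was at hand for 6 of the 10 sensors, and of these Mndal held the motif. The motif was also found for 8 of 10 other PYHIN genes and for 7 of 14 interferon response genes. The PYHIN genes are similar in sequence, so their matches are not independent of each other and their count is only descriptive. A second match for Mndal, of another form and on the opposite strand, lay 54 bases before another RefSeq start and is not shown. The exact form GAAATCGAAA, found in 13 of the 32851 windows (0.04%), stood upstream of Mndal and of 6 other PYHIN genes. The 30 bases around the match are given in the direction of each gene, with the match in capitals, for Mndal and for all 8 others.
Mndal: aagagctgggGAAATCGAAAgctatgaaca
Ifi203: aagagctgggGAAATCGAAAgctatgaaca
Ifi206: tgtctctgagGAAATCGAAAgctatgaacc
Ifi208: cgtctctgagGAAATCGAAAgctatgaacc
Ifi213: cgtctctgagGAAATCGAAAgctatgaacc
Ifi214: agtctctgagGAAATCGAAAgcgatgcact
Ifi207: cctagccaggGAAATCGAAAattaagaaca
Ifi211: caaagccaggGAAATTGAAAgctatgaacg
Ifi205: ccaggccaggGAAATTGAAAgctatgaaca
These stretches lie on the minus strand of GRCm38.p6, except that of Ifi208 on the plus strand. They are that of Mndal at chr1:173880204-173880233 with its match 36 bases before the start, that of Ifi203 at chr1:173942508-173942537, that of Ifi206 at chr1:173491339-173491368, that of Ifi208 at chr1:173673597-173673626, that of Ifi213 at chr1:173599326-173599355, that of Ifi214 at chr1:173536017-173536046, that of Ifi207 at chr1:173741831-173741860, that of Ifi211 at chr1:173913064-173913093 and that of Ifi205 at chr1:174031870-174031899. The stretches of Mndal and Ifi203 are identical over all 30 bases. The stretch of Mndal lies inside the span that GENCODE gives Mndal (to 173942491), before a RefSeq start at 173880187 whose following bases were not found in a GENCODE transcript of the gene. The differences of these 9 genes were not alike, from -1.67 for Ifi208 to -0.51 for Mndal and Ifi214, and the groups overlapped for Ifi207, Ifi208 and Ifi214. Of the sensors with a window, Ddx58 held the shorter form with 1 base between the blocks, a search added after the first had been seen, which was found in 879 windows (2.68%).
Ddx58: tctaggttcaGAAACGAAActggatcccc
This stretch lies on the minus strand at chr4:40239867-40239895, with the match 60 bases before the start. The windows of Ifih1, Aim2, Tlr9 and Trex1 held neither form. A match describes the letters and is not a binding site.

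Aim2 and Tlr9 were the DNA sensors whose groups overlapped. AIM2 binds double-stranded DNA in the cytosol and activates caspase-1 through the adaptor ASC. Aim2 (ENSMUSG00000037860, chromosome 1, 173350879 to 173466040, plus strand) was the lowest of the measured sensors, at 19.1, 18.6 and 9.95 FPKM in L7 muscles, against 22.5, 16.3 and 25.4 FPKM in Control muscles. Control replicate 2 lay below L7 replicates 1 and 2. Aim2 had a log2 difference of -0.44 ± 0.28 (SE), with limma p-values of 0.158 before and 0.580 after adjustment and 0.3. in the exact permutation test Without L7 replicate 3, and with median of ratios scaling, the difference was -0.12. Aim2 rested on 214 to 431 reads in L7 and 322 to 635 reads in Control libraries, the fewest of the measured sensors.

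Tlr9 was at 26.6, 27.1 and 11.0 FPKM in L7 muscles, against 23.3, 23.3 and 46.2 FPKM in Control muscles. Its position is chromosome 9, 106222598 to 106226883, plus strand (ENSMUSG00000045322). L7 replicates 1 and 2 lay above Control replicates 1 and 2, and the lower L7 mean rested on L7 replicate 3 and Control replicate 3. Tlr9 had a log2 difference of -0.53 ± 0.40 (SE), with limma p-values of 0.226 before and 0.582 after adjustment and 0.6. in the exact permutation test The difference was -0.12 without L7 replicate 3, -0.21 without Control replicate 3 and 0.01 with library weights, so its sign depended on the setting.

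Tmem173 acts after a sensor, and Trex1 acts on the DNA itself. Tmem173 encodes STING, an adaptor in the endoplasmic reticulum that is activated by the messenger of cGAS. Tmem173 (ENSMUSG00000024349, chromosome 18, 35733679 to 35740554, minus strand) was at 31.3, 36.8 and 17.1 FPKM in L7 muscles, against 51.4, 35.3 and 58.2 FPKM in Control muscles. L7 replicate 2 lay above Control replicate 2, and the other libraries were apart. The log2 difference of Tmem173 was -0.78 ± 0.31 (SE), with limma p-values of 0.0380 before and 0.580 after adjustment and 0.2. in the exact permutation test Without L7 replicate 3 the difference was -0.47.

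Trex1 encodes the exonuclease that clears DNA from the cytosol and so limits STING signalling. Trex1 (ENSMUSG00000049734, chromosome 9, 109057933 to 109059734, minus strand) was listed at 0 FPKM in all 6 libraries. In the annotation all 1147 of its exon bases (100%) also lie in exons of Atrip, a DNA damage checkpoint gene on the same strand, which averaged 0.322 FPKM. Among protein-coding genes wholly covered by exons of other genes in this way, 137 of 142 (96.5%) were listed at 0 in every library. Among those covered by 50% to under 100% the number was 87 of 437 (19.9%), and among those covered by less it was 3411 of 21214 (16.1%). The 0 of Trex1 is thus shared with nearly all genes so placed, and its expression in these muscles is not known from the table. The other 9 sensors had at most 4.3% of their exon bases in other genes.

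**Figure D3:**
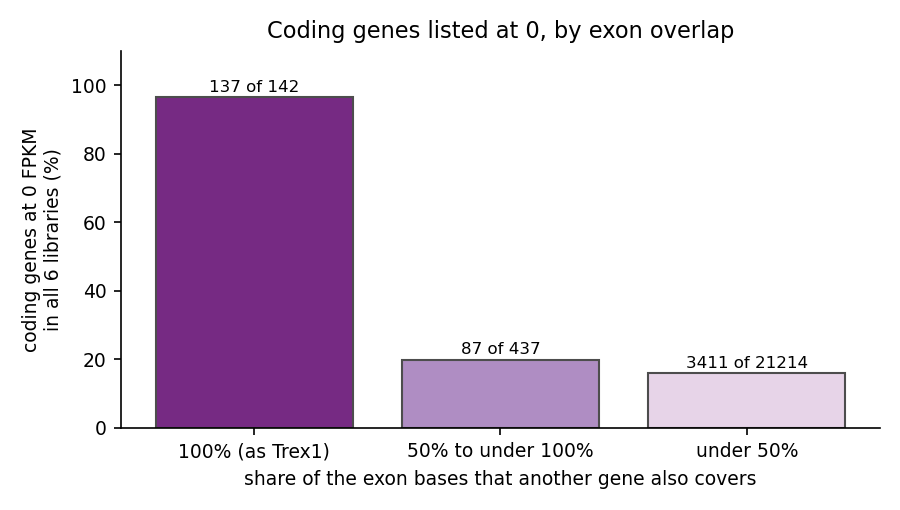
Percentage of protein-coding genes listed at 0 FPKM in all 6 libraries, by the share of their exon bases that other genes also cover. The bar of wholly covered genes, where Trex1 belongs, stands at 96.5% (137 of 142), against 19.9% and 16.1% for the others.

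The levels of the 9 measured sensors formed a higher and a lower set in both groups. In L7 muscles the order of the means was Ifi204, Mndal, Zbp1, Ddx58 and Dhx58, then Ifih1, Tmem173, Tlr9 and Aim2. In Control muscles it was Zbp1, Ifi204, Mndal, Dhx58 and Ddx58, then the same 4 genes in the same order. The only neighbours whose ranges over libraries did not overlap were the fifth and sixth, Dhx58 and Ifih1 in L7 muscles, and Ddx58 and Ifih1 in Control muscles. Between genes farther apart in the order, some ranges within a set were also separate. In L7 muscles this held for Ifih1 above Aim2. In Control muscles it held for Ifih1 and Tmem173 above Aim2, for Zbp1, Ifi204 and Mndal above Ddx58, and for Ifi204 above Dhx58. Cgas, the gene of the main sensor of cytosolic DNA, was lower still, at 4.74, 4.18 and 1.84 FPKM in L7 muscles, against 5.83, 5.11 and 7.04 FPKM in Control muscles.

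The difference between L7 and Control muscles was of similar size for the DNA sensors and the RNA sensors. The mean log2(FPKM + 1) of the 5 DNA sensors was 6.01, 5.96 and 5.26 in L7 replicates 1 to 3, against 6.34, 6.06 and 6.66 in Control replicates 1 to 3. That of the 3 RNA sensors was 6.21, 6.12 and 5.53 in L7 replicates, against 6.48, 6.43 and 6.75 in Control replicates. The group difference was -0.61 for the DNA sensors and -0.60 for the RNA sensors. Subtracting RNA from DNA sensors within each library gave -0.20, -0.16 and -0.28 in L7 muscles, against -0.14, -0.37 and -0.09 in Control muscles. These values overlapped, with means of -0.21 (SD 0.06) in L7 and -0.20 (SD 0.15) in Control muscles. The difference of -0.01 was smaller than the pooled SD of 0.11, and no test was made of this score. It was 0.03 without Zbp1, which also binds RNA, and -0.04 with Tmem173 added to the DNA sensors, an alternative chosen after the data had been seen.

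**Figure D4:**
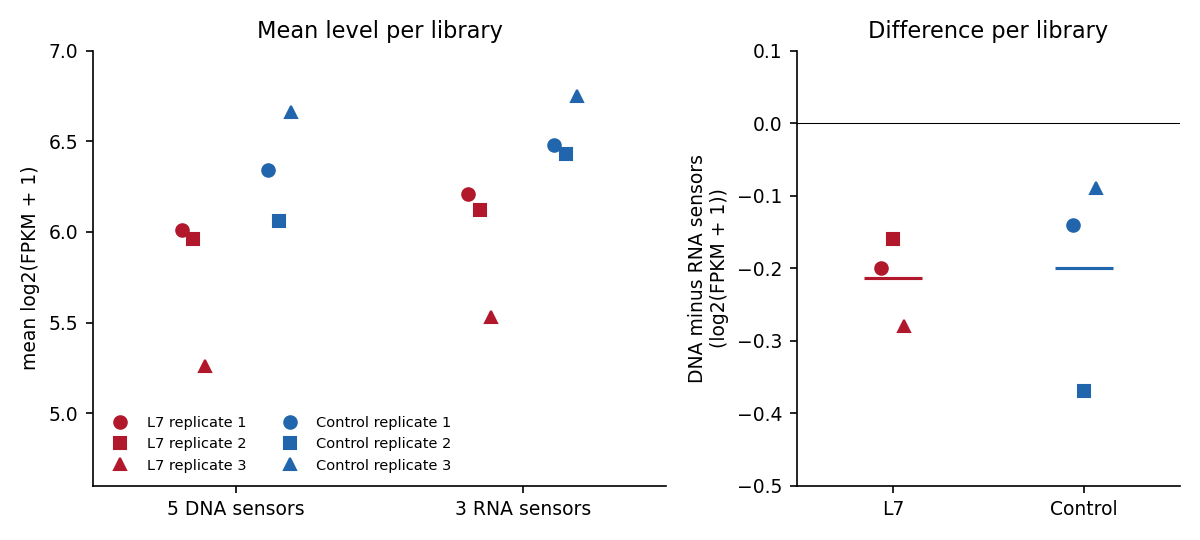
Left, mean log2(FPKM + 1) of the 5 DNA sensors and of the 3 RNA sensors in each library, L7 in red to the left of Control in blue. Right, the DNA sensor mean minus the RNA sensor mean in each library, with lines at the group means of -0.21 (L7) and -0.20 (Control), where the L7 values lie within the range of the Control values.

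Within each sex the sensor means were also lower in L7 muscles. Among males, with 1 L7 and 2 Control libraries, all 9 means were lower, at 0.5714 to 0.8001 times the Control mean, and in 8 genes the L7 library was below both Control libraries (33.9% of all genes). Among females, with 2 L7 libraries and 1 Control library, all 9 means were lower, at 0.619 to 0.873 times the Control value, and in 6 genes both L7 libraries were below the Control library (49.5% of all genes). The share of all genes with a lower L7 mean within each sex is not given here, and the shares above are for full separation. Each sex held 1 of the 2 libraries at the ends of the FPKM range, with Control replicate 3, the highest for all 9 genes, among the males and L7 replicate 3, the lowest, among the females.

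In the authors' deposited table of the comparison, all 9 measured sensors had negative log2 fold changes, from -0.64 to -0.30. In the authors' deposited table, a lower level was given for 3 of them with an unadjusted p under 0.05, as for 0.751% of the 31690 genes with a p-value. These were Zbp1 (log2 fold change -0.64, p = 0.0253), Ifi204 (-0.63, p = 0.0331) and Tmem173 (-0.64, p = 0.0397) in the authors' deposited table. After adjustment none of the 9 passed in the authors' deposited table, each with an adjusted p of 1, and 9 of all genes (0.0284%) did. The authors' deposited table of over-represented terms lists the RIG-I-like receptor pathway with 5 of its 68 genes marked (corrected p = 0.273) and the cytosolic DNA-sensing pathway with 4 of 63 (corrected p = 0.418). In the authors' deposited table Tmem173 was among the marked genes of both pathways and Zbp1 among those of the second, and none of the 3 RNA sensors was among them. The authors' deposited table of Gene Ontology terms marks 17 of 37 genes of the cellular response to interferon-beta, all 17 lower in L7, with Ifi204 and Tmem173 among them. Marked genes are those the authors listed as differing, by a rule not given here, and a marked gene need not pass adjustment. Zbp1, Ifi204 and Tmem173 were marked without passing it. The share of marked genes among all genes is not given here.

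Partners of the sensors are set beside the shares over all genes given above, 70.8% with a negative difference, 13.7% with each L7 value below each Control value and 4.25% lower with an unadjusted p under 0.05. Without L7 replicate 3, 15.0% of all genes had the L7 libraries below the Control libraries, and the median of all genes was -0.03. Of 15 partners of the RNA sensors, 14 had negative and 1 had positive differences, and the median was -0.47, or -0.31 after subtracting that of all genes, and in 7 of 15 (13.7% of all genes) each L7 value lay below each Control value. None passed limma, and 5 of 15 had an unadjusted p under 0.05 (4.25% of all genes). The median was -0.20 without L7 replicate 3, and 7 genes were again without overlap. Eif2ak2, which encodes the RNA-activated kinase PKR, was at 64.5, 59.0 and 34.5 FPKM in L7 muscles, against 91.3, 75.9 and 89.7 FPKM in Control muscles, without overlap. The ubiquitin ligase gene Rnf135, whose product activates RIG-I, was at 18.6, 20.3 and 13.7 FPKM in L7 muscles, against 23.9, 24.3 and 26.3 FPKM in Control muscles. The gene with the positive difference was Mavs, the adaptor of RIG-I and MDA5, at 17.0, 15.4 and 21.5 FPKM in L7 muscles, against 13.4, 14.7 and 17.4 FPKM in Control muscles, with overlap (0.23 ± 0.18 SE). Irf3, the transcription factor downstream of MAVS and STING, had overlapping groups and a difference of -0.13 ± 0.14 (SE). Mavs, and below Cgas, Pycard, Casp1 and Ripk3, are named for their role and were picked after their values had been seen.

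Of 21 partners of the DNA sensors, 19 (70.8% of all genes) had negative and 2 had positive differences, and the median was -0.35, or -0.19 after subtracting that of all genes, and in 6 of 21 (13.7% of all genes) each L7 value lay below each Control value. None passed limma, and 3 of 21 had an unadjusted p under 0.05 (4.25% of all genes). Leaving out L7 replicate 3 left 16 negative and 7 without overlap, with a median of -0.18. Samhd1, which encodes an enzyme that depletes deoxynucleotides, was at 288.9, 311.1 and 163.9 FPKM in L7 muscles, against 414.3, 303.3 and 575.6 FPKM in Control muscles, with overlap. Trim56, a ubiquitin ligase gene of the STING route, was at 11.5, 12.7 and 6.51 FPKM in L7 muscles, against 17.9, 15.9 and 17.7 FPKM in Control muscles, without overlap. Ifi35, an interferon-induced gene, was at 46.2, 47.5 and 37.4 FPKM in L7 muscles, against 62.8, 58.0 and 74.4 FPKM in Control muscles, without overlap. Banf1, whose product shields nuclear DNA from cGAS, overlapped at 117.7 to 126.5 FPKM in L7 and 119.2 to 135.5 FPKM in Control muscles. Cgas itself did not overlap, with a difference of -0.66 ± 0.28 (SE) and limma p-values of 0.0506 before and 0.580 after adjustment. The inflammasome partners of AIM2 overlapped, with differences of -0.48 ± 0.27 (SE) for Pycard, the gene of ASC, and -0.68 ± 0.31 (SE) for Casp1, the gene of caspase-1.

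The 5 genes of the death route that ZBP1 can start all had negative differences, with a median of -0.61, and in 4 of 5 (13.7% of all genes) each L7 value lay below each Control value. None passed limma and 2 had an unadjusted p under 0.05 (4.25% of all genes). The median was -0.28 without L7 replicate 3, with 4 of 5 negative and 4 without overlap. Mlkl, whose product breaks the membrane in necroptosis, was at 35.6, 33.1 and 19.2 FPKM in L7 muscles, against 58.6, 43.8 and 59.2 FPKM in Control muscles (-0.89 ± 0.25 SE). Casp8, which encodes the caspase that restrains necroptosis, was at 34.8, 30.0 and 18.6 FPKM in L7 muscles, against 43.8, 35.9 and 46.2 FPKM in Control muscles (-0.61 ± 0.24 SE). The kinase gene Ripk3 was at 22.7, 20.1 and 8.73 FPKM in L7 muscles, against 28.3, 24.6 and 25.9 FPKM in Control muscles, also without overlap.

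All 14 endosomal receptors and partners had negative differences, and the median was -0.33, or -0.18 after subtracting that of all genes, and in 4 of 14 (13.7% of all genes) each L7 value lay below each Control value. None passed limma and 1, Tlr3, had an unadjusted p under 0.05 (4.25% of all genes). The list rested on L7 replicate 3, without which 9 of 14 were negative and the median was -0.01. Tlr3, the receptor of double-stranded RNA, was at 12.9, 14.2 and 9.50 FPKM in L7 muscles, against 19.3, 16.3 and 21.1 FPKM in Control muscles. Unc93b1, which encodes the chaperone that brings TLR9 to endosomes, overlapped at 250.2, 248.6 and 142.3 FPKM in L7 muscles, against 208.0, 203.1 and 324.2 FPKM in Control muscles. As for Tlr9, L7 replicates 1 and 2 were above Control replicates 1 and 2. Lgmn, the gene of a protease that processes endosomal receptors, also overlapped (-0.33 ± 0.32 SE), and Hsp90b1, a chaperone gene, did not (-0.68 ± 0.30 SE).

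The PYHIN genes other than Aim2, Ifi204 and Mndal had a median difference of -0.79, with all 9 tested genes negative and 6 without overlap (13.7% of all genes). None passed limma and 6 had an unadjusted p under 0.05 (4.25% of all genes). Without L7 replicate 3 the median was -0.50, with all 9 still negative and 6 without overlap. Of the 11 genes listed, 10 were matched, and Ifi202b was under the filter of a mean of 1 FPKM. Ifi203 was at 68.7, 67.3 and 48.0 FPKM in L7 muscles, against 88.4, 78.8 and 97.8 FPKM in Control muscles. Ifi211 was at 64.6, 53.5 and 39.7 FPKM in L7 muscles, against 93.0, 71.2 and 106.7 FPKM in Control muscles. Ifi205 was at 26.4, 23.5 and 18.2 FPKM in L7 muscles, against 38.6, 31.7 and 54.9 FPKM in Control muscles. All 3 of these genes were without overlap, as Ifi204 and Mndal were, and of the 50-base stretches of Ifi211 72.8% occur in other genes.

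**Figure D5:**
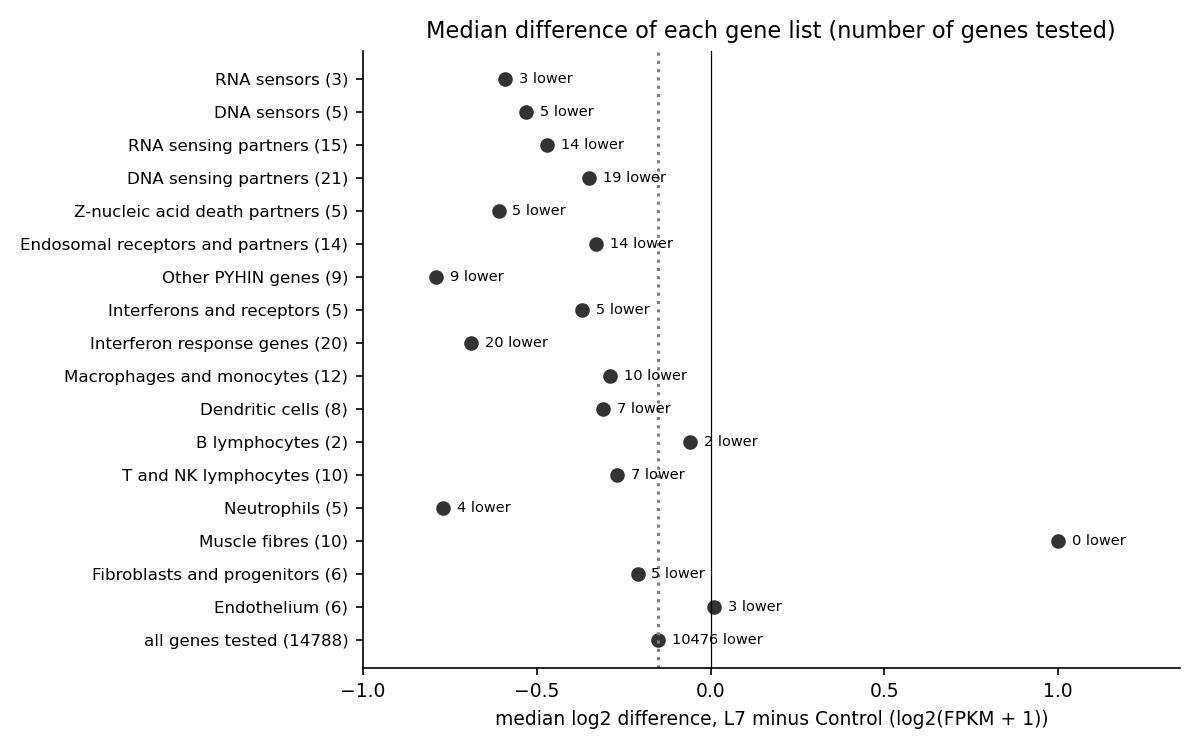
Median log2 difference (L7 minus Control, log2(FPKM + 1)) of each gene list, with the number of genes tested in brackets and the number with a negative difference beside each point. The dotted line is the median of all 14788 genes (-0.15), with the other PYHIN genes (-0.79) and the neutrophil markers (-0.77) farthest to the left and the muscle fibre markers (1.00) farthest to the right. Without L7 replicate 3 these medians were -0.50, -0.09 and 0.37.

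Interferons themselves were near the limit of detection. The 14 interferon alpha genes summed to 2, 0 and 3 reads in L7 libraries, against 6, 3 and 4 reads in Control libraries. Ifnb1, the gene of interferon beta, had 7, 8 and 2 reads in L7 libraries, against 19, 10 and 11 reads in Control libraries, without overlap and below the level required for the test. Of the 24 interferon and receptor genes, 9 had no read in any library. Ifng, the gene of interferon gamma, which T and NK cells make, was at 0.80, 2.13 and 1.55 FPKM in L7 muscles, against 4.77, 2.53 and 5.73 FPKM in Control muscles, without overlap. The log2 difference of Ifng was -1.09 ± 0.30 (SE), with limma p-values of 0.00847 before and 0.580 after adjustment. Ifnar1 and Ifnar2, the receptor genes of type I interferon, overlapped, with differences of -0.37 ± 0.30 and -0.40 ± 0.27 (SE). The receptor genes of interferon gamma, Ifngr1 (-0.08 ± 0.25 SE) and Ifngr2 (-0.24 ± 0.19 SE), overlapped as well.

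Interferon response genes, a class that holds many sensor genes, had a median difference of -0.69, or -0.54 after subtracting that of all genes. All 20 were negative (70.8% of all genes), and in 19 each L7 value lay below each Control value (13.7%). None passed limma and 17 had an unadjusted p under 0.05 (4.25%). Without L7 replicate 3 the median was -0.53, with all 20 negative and 19 without overlap. Isg15, a ubiquitin-like modifier gene, was at 254.6, 241.8 and 182.2 FPKM in L7 muscles, against 408.4, 355.5 and 449.7 FPKM in Control muscles (-0.84 ± 0.19 SE). Ifit1, whose product binds foreign RNA ends, was at 71.98, 67.72 and 55.41 FPKM in L7 muscles, against 107.8, 100.7 and 122.9 FPKM in Control muscles (-0.76 ± 0.16 SE). The gene that overlapped was Irf7, the transcription factor that amplifies interferon production, with L7 replicate 1 above Control replicate 1 (649.5 and 637.4 FPKM).

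Markers of cell types differed in several directions beside the sensors, and their part in the sensor differences was not tested. All 10 muscle fibre markers had positive differences, with a median of 1.00, and in 4 (5.49% of all genes) each L7 value lay above each Control value. Without L7 replicate 3 all 10 were positive and 4 without overlap, with a median of 0.37. The share of all genes with L7 above Control in that setting is not given here. Acta1, the actin gene of skeletal muscle, was at 11188, 12031 and 33716 FPKM in L7 muscles, against 5718, 9450 and 9339 FPKM in Control muscles. The 12 macrophage and monocyte markers summed to 1922 to 4180 FPKM in L7 and 2853 to 4357 FPKM in Control muscles, and the groups overlapped for all 12. Their median difference was -0.29, with 10 negative and 2 positive, and turned to 0.06 without L7 replicate 3, with 4 negative and 8 positive. Lyz2, the macrophage lysozyme gene, was at 2103, 1614 and 759.2 FPKM in L7 muscles, against 1412, 1218 and 1743 FPKM in Control muscles.

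Dendritic cell markers, with 8 of 10 tested and a median difference of -0.31 (-0.13 without L7 replicate 3), summed to 817 to 1090 FPKM in L7 and 1325 to 1423 FPKM in Control muscles, mostly from Bst2, which interferon also induces. Bst2 was at 911.4, 883.8 and 712.7 FPKM in L7 muscles, against 1114, 1145 and 1178 FPKM in Control muscles. The T and NK markers summed to 72.9 to 124.2 FPKM in L7 and 107.8 to 205.0 FPKM in Control muscles, with 7 of 10 negative (70.8% of all genes), 2 of 10 without overlap (13.7%) and a median of -0.27 (-0.12 without L7 replicate 3). These shares are near those of all genes. Gzmb, the gene of a cytotoxic granule protease, was at 39.3, 25.7 and 18.3 FPKM in L7 muscles, against 67.6, 45.7 and 89.2 FPKM in Control muscles, without overlap. The 3 markers of this list with positive differences were Cd4, Cd8a and Cd8b1, all with overlap. Cd8a was at 4.74, 7.32 and 2.97 FPKM in L7 muscles, against 5.46, 2.71 and 4.43 FPKM in Control muscles. Cd8b1 was at 4.23, 6.86 and 3.31 FPKM in L7 muscles, against 3.94, 2.67 and 3.77 FPKM in Control muscles. Neutrophil markers, with 5 of 8 tested, summed to 51.1 to 299.7 FPKM in L7 and 164.8 to 269.8 FPKM in Control muscles, with 4 of 5 negative, all 5 overlapping and a median of -0.77. The neutrophil median was -0.09 without L7 replicate 3. B cell markers were low, with 2 of 7 tested, at 8.51 to 15.0 FPKM summed in L7 and 9.02 to 14.9 FPKM in Control muscles. The 6 endothelial markers had a median difference of 0.01 and the 6 fibroblast and progenitor markers one of -0.21 (-0.10 without L7 replicate 3). No marker of these lists was at 0 in all libraries.

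The profile of the RNA sensors over the 6 libraries, taken as the mean of the standardised values, was followed most closely by Ogfr (Pearson r = 0.9995), Commd4 (0.9978), Slfn8 (0.9974), Tor3a (0.9973) and Mrpl40 (0.9968). That of the DNA sensors was followed most closely by Prkx (0.9978), Ifi213 (0.9978), Rbck1 (0.9975), Setdb2 (0.9974) and Stx11 (0.997). These are the 5 highest of 13028 genes compared in each case, over 6 points that share library, depth and group. Over 0.9 were 1887 genes for the RNA sensors and 1607 for the DNA sensors, so a high value was common. Of the named genes, Ifi213 is a PYHIN gene of the cluster that holds Ifi204 and Mndal.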

How the data were processed

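The deposited FPKM table of the authors gives 1 value per gene and library. The submitters' processing notes name the build mm10, the aligners HISAT2 2.0.4, TopHat2 2.0.12 and Bowtie2 2.2.3, and DESeq 1.12.0. The sources used here do not give the counting program, its strand setting or the annotation. Per the file headers, the deposited table of the comparison has the groups' mean normalised signal, the log2 fold change and p-values before and after adjustment, and further tables hold p-values of over-represented terms. Symbols, positions and exon overlaps came from GENCODE M21 of the same build (51633 of 52369 genes matched), and promoter windows from RefSeq (GRCm38.p6).

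The test, two-sided, was limma 3.58.1 under R 4.3.3, fitted to log2(FPKM + 1) with a trend of variance on mean, for the 14788 genes with a mean of at least 1 FPKM, with group as the only factor and Benjamini-Hochberg adjustment over all of them at a threshold of 0.05. Differences on this scale understate the change of low genes. Steps between FPKM values and the deposited signal means gave back whole reads for 152096 of 152096 values above 0 (100%, within 0.05), which served for depth, Y-linked reads and limma voom. The scripts were tested on simulated data. The exact permutation test cannot go below p = 0.1 with 3 libraries against 3. Lists are described by counts and medians, without a test.

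The sensors and the lists were chosen with earlier results of these data known. Named genes are the 10 sensors, in each list the 2 of highest mean FPKM and the 2 of smallest unadjusted p (not all printed), interferon genes with a value above 0, and the 5 genes most like each profile. Other steps used Python 3.11.15 with numpy 2.4.6, pandas 2.3.3 and matplotlib 3.10.9.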

Additional observations from a re-analysis of the deposited data

How the results depend on the processing

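No sensor gene was called under any of the 14 alternatives, and the lowest adjusted limma p of any sensor was 0.346 (Mndal, library weights). Of 126 combinations of a sensor and an alternative, 125 kept direction and side of the threshold, and Tlr9 reversed to 0.01 (adjusted p = 0.990) with library weights. Of all genes, 0 were called in the main setting, 3 with library weights, 0 to 1 when each library was left out in turn (the 1 without L7 replicate 1), and 1 without L7 replicate 3 after median of ratios scaling. The cause was not tested. With the replicate number as a block, 0 genes and 0 sensors were called. Same-numbered libraries correlated across genes at 0.32, -0.07 and 0.09, on a measure other than the library correlations given above. Differently numbered libraries correlated at -0.35 to 0.22. The 0.32 of the replicates numbered 1 was the highest value, but L7 replicate 2 correlated best with Control replicate 1 (0.22) and L7 replicate 3 with Control replicate 2 (0.21). The numbers were therefore not taken as pairs. The DNA minus RNA difference stayed between -0.10 and 0.05, where 0.05 with Tmem173 and Trex1 added includes the fixed 0 of Trex1. A list's median counted as moved where it changed by more than the pooled SD of its median level between replicates, which L7 replicate 3 widens, so that large changes can stay under it. By that rule 6 of 210 combinations moved: the fibroblast median to -0.03 with median of ratios scaling, -0.07 with that scaling and no L7 replicate 3, and from -0.31 to -0.10 when a library was left out, and the endothelial median to 0.17 with median of ratios scaling. Changes of over 1.5 times or in sign could thus go uncounted, and the following are examples rather than a full list. Without L7 replicate 3 the medians were -0.09 (neutrophil), 0.37 (muscle fibre), -0.01 (endosomal), 0.06 (macrophage) and -0.06 (interferons and receptors). In that setting they were -0.20 for the RNA sensor partners, -0.18 for the DNA sensor partners, -0.28 for the death route and -0.50 for the other PYHIN genes. With library weights the macrophage median was 0.11 and the T and NK median 0.05. Over the alternatives the log2 difference lay between -0.69 and -0.30 for Ddx58, -0.77 and -0.43 for Ifih1, -0.74 and -0.34 for Dhx58, -0.97 and -0.49 for Zbp1, -0.61 and -0.12 for Aim2, -0.99 and -0.53 for Ifi204, -0.58 and -0.34 for Mndal, -0.74 and 0.01 for Tlr9, and -1.0 and -0.41 for Tmem173. The fewest reads behind a measured sensor were 214 (Aim2, L7 replicate 3), and with 3 libraries a group no permutation p under 0.1 is possible.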

Other observations

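Single genes of the sensing lists had libraries far from the rest of their own group, and these were chosen after their values were seen. Ifi208, a PYHIN gene, was at 1.07, 1.33 and 11.0 FPKM in L7 replicates 1 to 3, against 26.7, 0.80 and 36.1 FPKM in Control replicates 1 to 3, so that both groups held low and high libraries and Control replicate 2 was the lowest of all. Ddx60, a helicase gene of antiviral defence, was at 25.1, 23.3 and 16.0 FPKM in L7 muscles, against 42.6, 28.3 and 116.4 FPKM in Control muscles. Enpp1, which encodes an enzyme that degrades the messenger of cGAS, was at 7.79, 9.24 and 3.23 FPKM in L7 muscles, against 16.5, 20.2 and 4.43 FPKM in Control muscles, with Control replicate 3 the lowest Control library here and the highest for all 9 sensors.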
